A study of Mus musculus with 6 samples.

Results

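The 8 genes described here encode proteins that restrain cyclin-dependent kinases (CDKs): the INK4 members Cdkn2a, Cdkn2b, Cdkn2c and Cdkn2d, the CIP/KIP members Cdkn1a, Cdkn1b and Cdkn1c, and the CDK-associated phosphatase gene Cdkn3. They were chosen by name, and a gene was read where a transcript cluster of the array carried its symbol alone. For a gene with several such clusters, the brightest by the mean of the 6 arrays was used. This gave values for 7 of the 8 members, out of 19938 genes named in this way, and all 7 were bright enough to be among the 15462 genes tested. The cluster of Cdkn1a, which encodes p21, also carries a second gene symbol, so Cdkn1a was not analysed here and CIP/KIP means Cdkn1b and Cdkn1c below.

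Gene expression was measured in mouse embryonic fibroblasts (MEFs), cultured connective tissue cells of the embryo, in 3 Rb1+/+ cultures and 3 Rb1L/L cultures with 1 array each. All cultures came from E13.5 embryos and were grown to passage 4 in serum medium with antibiotics, and RNA was taken while they proliferated. Rb1 encodes the retinoblastoma protein pRb, and the L allele is known to alter the surface by which pRb holds proteins with an LXCXE motif. The labels number the cultures 1 to 3 in each genotype and do not say from which litters they came, so p-values measure the spread between these cultures. As the RNA is from whole cultures, a change in the mix of cells and a change per cell cannot be told apart.

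CDKs drive the cell cycle when bound to a cyclin. INK4 proteins are built of ankyrin repeats and bind Cdk4 and Cdk6, which keeps D-type cyclins from joining them and pRb from being phosphorylated; CIP/KIP proteins grip whole cyclin-CDK complexes, above all those of Cdk2. In cultured MEFs the Ink4-Arf locus, which holds Cdkn2a and Cdkn2b, is known to be switched on with passage and to end proliferation. Cdkn3 acts differently, by removing the activating phosphate of CDKs, and its transcript is known to peak late in the cell cycle.

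The promoter sequences of the members whose transcripts differed most are shown first, with the motifs whose counts follow. RefSeq promoter windows (GRCm38.p6, 300 bases around a listed start) were found for all members but Cdkn1c. Cdkn3 is shown by the outer 170 bases of its window, with CCAAT boxes and the element TTTGAA in capitals; that element is the CHR (cell cycle genes homology region) known from genes of late cell cycle, and here it stands on the other strand and so reads TTCAAA. Cdkn2d is shown by 30 bases of its window, with GC boxes (GGGCGG) in capitals.
Cdkn3, chr14:46760291-46760460, plus strand: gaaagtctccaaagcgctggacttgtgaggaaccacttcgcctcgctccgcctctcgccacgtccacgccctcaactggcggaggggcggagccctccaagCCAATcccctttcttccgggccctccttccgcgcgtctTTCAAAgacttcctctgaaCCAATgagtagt
Cdkn2d, chr9:21291310-21291339, minus strand: caagggcgctctGGGCGGggcctgGGGCGG

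Counted over whole windows of 300 bases and on both strands, with each motif counted on its own so that matches may share bases, Cdkn3 had 4 CCAAT boxes, 1 CHR element and 4 GC boxes. Cdkn2d had 5 GC boxes, 1 CCAAT box and 0 CHR elements. Of all 32851 windows, 37.4% held a CCAAT box, 11.7% held 2 or more, 17.9% held a CHR element and 35.7% held a GC box, with 19.5% holding 2 or more. The CHR element was also found in the window of Cdkn2b, and Cdkn1b had 3 CCAAT boxes. E2F words (TTTCCCGC, TTTCGCGC, TTTGCCGC or TTTGGCGC), present in 2.26% of windows, were found for 1 member start, the outer of the 2 starts of Cdkn2a. These starts lie 12427 bases apart and belong to its Ink4a and Arf transcripts, which the single array cluster does not tell apart. A match here is a run of letters, not a measured binding site.

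Across the genome, 12.2% of tested genes passed an adjusted p of 0.05 between the genotypes (limma, Benjamini-Hochberg over 15462 genes). Of tested genes, 7.10% were higher and 5.08% lower in Rb1L/L cultures, and 28.7% had an unadjusted limma p under 0.05. This fit did not use the culture number, which entered as a block in an alternative fit. The groups did not overlap, meaning that all 3 arrays of one genotype lay above all 3 of the other, for 34.5% of tested genes. Of the 7 members, Cdkn2d and Cdkn3 rose, 0 fell and 5 did not pass, and the groups did not overlap for 3. The median log2 difference of the members was 0.15, against -0.02 over all tested genes, and 6 of the 7 had a higher mean in Rb1L/L cultures, where 43.6% of all tested genes lay above 0. That tally of signs can turn on single cultures: without Rb1+/+ culture 3 the estimates of Cdkn2a and Cdkn1c were -0.014 and -0.028, and that of Cdkn1c was also negative without Rb1+/+ culture 2 (-0.11), without Rb1L/L culture 1 (-0.036) and with quantile normalization (-0.0070). With 7 members these counts describe the members and are not a test of them as a set. All values are deposited log2 values, in which 1 unit is a doubling; they compare arrays within a gene and not genes with each other, because probes differ in affinity.

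The INK4 gene Cdkn2d, which encodes p19Ink4d, measured log2 6.80, 6.70 and 6.43 in Rb1+/+ cultures 1 to 3 and 7.23, 7.33 and 7.18 in Rb1L/L cultures 1 to 3. Every Rb1L/L culture lay above every Rb1+/+ culture, and the genotype means were 6.64 ± 0.19 and 7.25 ± 0.08 (SD, n = 3 each). The difference was 0.61 ± 0.10 on the log2 scale (SE; 95% interval 0.38 to 0.83), or 1.52-fold, with a limma adjusted p of 0.00984. Same-numbered cultures differed by 0.43, 0.64 and 0.76. It passed in 14 of 15 alternative fits; without both cultures numbered 1 the difference was 0.70 and the limma adjusted p 0.0716, in a fit that called 92 genes in all.

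Cdkn2a encodes p16Ink4a and, from another start and reading frame, p19Arf, which protects p53 from Mdm2. It measured log2 9.25, 8.82 and 8.74 in Rb1+/+ and 9.12, 8.95 and 8.99 in Rb1L/L cultures. The highest value was Rb1+/+ culture 1, the other two of that genotype were the lowest, and the groups overlapped. The difference was 0.08 ± 0.13 (SE; 95% interval -0.21 to 0.37; limma adjusted p = 0.710), an interval that holds 0 as well as changes of either sign.

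Cdkn2b, the neighbour of Cdkn2a that encodes p15Ink4b, measured 10.17, 9.78 and 9.58 in Rb1+/+ and 9.94, 9.55 and 9.64 in Rb1L/L cultures. Culture 1 was the highest in both genotypes and the groups overlapped. Its difference of -0.13 ± 0.15 (SE; 95% interval -0.49 to 0.22; limma adjusted p = 0.614) was the one negative estimate among the members over all arrays, and turned to 0.03 without Rb1+/+ culture 1. Cdkn2c, which encodes p18Ink4c, measured 7.05, 7.36 and 7.41 in Rb1+/+ and 7.34, 7.38 and 7.55 in Rb1L/L cultures. Here Rb1+/+ culture 1 was the lowest, and the remaining 5 arrays lay within a narrow band in which the groups overlapped. The difference was 0.15 ± 0.10 (SE; 95% interval -0.09 to 0.39; limma adjusted p = 0.378). Thus 1 of the 4 INK4 genes passed, and the intervals of the other three did not reach the estimate for Cdkn2d.

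**Figure D1:**
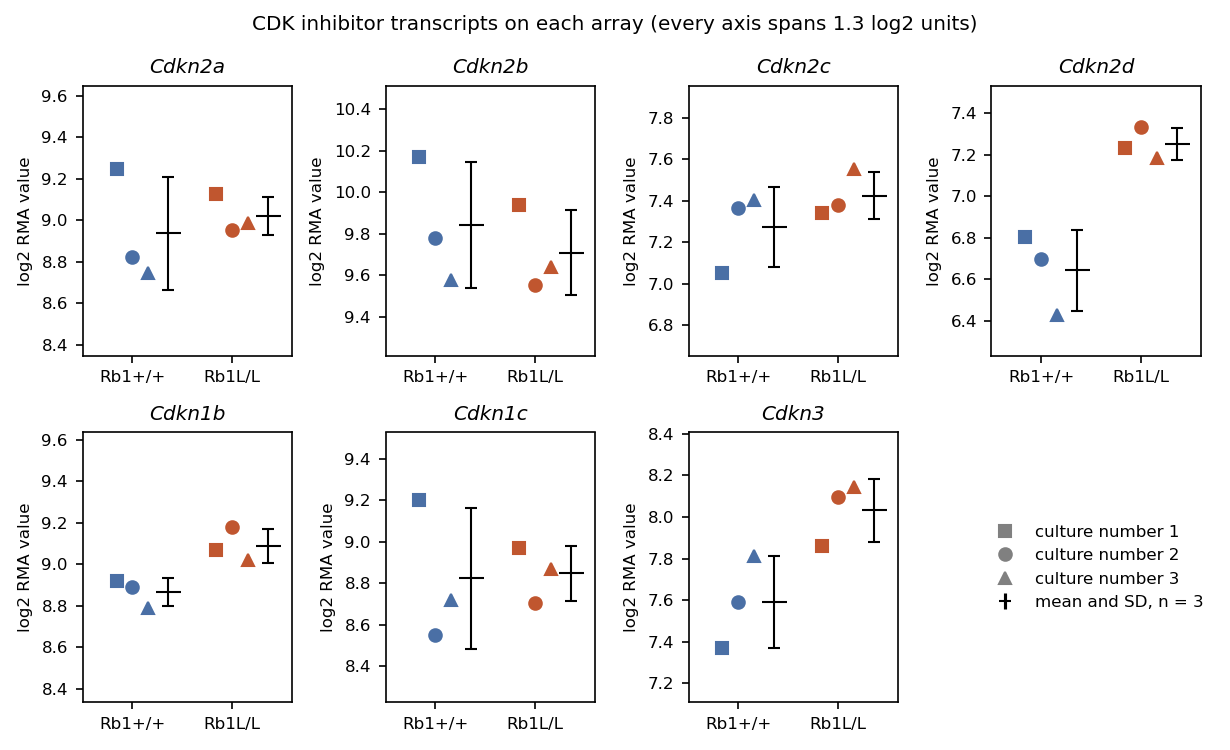
Deposited log2 RMA value (y axis, each panel spanning the same range) of each of the 7 measured CDK inhibitor genes in Rb1+/+ (blue) and Rb1L/L (orange) cultures; marker shape gives the culture number, and bars give the mean and SD of 3 arrays. The Cdkn2d, Cdkn1b and Cdkn3 panels show no overlap between genotypes, and culture 1 (square) is the lowest of Rb1+/+ for Cdkn2c and Cdkn3 and the highest for the other 5 genes.

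Among the CIP/KIP genes, Cdkn1b encodes p27Kip1, a brake on Cdk2 whose amount is known to be set largely by protein turnover. It measured log2 8.92, 8.89 and 8.79 in Rb1+/+ and 9.07, 9.18 and 9.02 in Rb1L/L cultures. The groups did not overlap, and the gap between them, from 8.92 to 9.02, was smaller than the range of either group. The difference was 0.22 ± 0.07 (SE; 95% interval 0.07 to 0.38), or 1.17-fold, and did not pass after adjustment (limma adjusted p = 0.0648; 0.0530 with the culture number as a block). Its estimate stayed positive in all 15 alternative fits and passed in 1, with a higher floor on dim genes (limma adjusted p = 0.0478). A second, dimmer cluster of Cdkn1b measured 5.60, 5.53 and 5.61 in Rb1+/+ and 5.74, 6.02 and 5.73 in Rb1L/L cultures, again with no overlap and with a difference of 0.25.

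Cdkn1c, an imprinted gene that encodes p57Kip2, measured 9.20, 8.55 and 8.72 in Rb1+/+ and 8.97, 8.71 and 8.87 in Rb1L/L cultures. The groups overlapped widely, and Rb1+/+ culture 1 was the highest of the 6. The difference was 0.02 ± 0.15 (SE; 95% interval -0.33 to 0.38; limma adjusted p = 0.938), so a change the size of that in Cdkn1b lies within its interval.

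The phosphatase gene Cdkn3 measured 7.37, 7.59 and 7.81 in Rb1+/+ and 7.86, 8.09 and 8.14 in Rb1L/L cultures. All Rb1L/L cultures lay above all Rb1+/+ cultures, though by only a small step between Rb1+/+ culture 3 and Rb1L/L culture 1, and culture 1 was the lowest in each genotype. The means were 7.59 ± 0.22 and 8.03 ± 0.15 (SD, n = 3 each), and the difference was 0.44 ± 0.12 (SE; 95% interval 0.17 to 0.71), or 1.36-fold, with a limma adjusted p of 0.0476. Same-numbered cultures differed by 0.49, 0.51 and 0.33, and with the culture number as a block the limma adjusted p was 0.00873. The call was close to the threshold: it was lost with array weights (0.0526), with no floor on dim genes (0.0552) and in 6 of the 7 fits that left out cultures (adjusted p of 0.0588 to 0.136, estimates of 0.33 to 0.53). Only the fit without Rb1+/+ culture 3, among those 7, kept it (estimate 0.55, limma adjusted p = 0.0334).

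**Figure D2:**
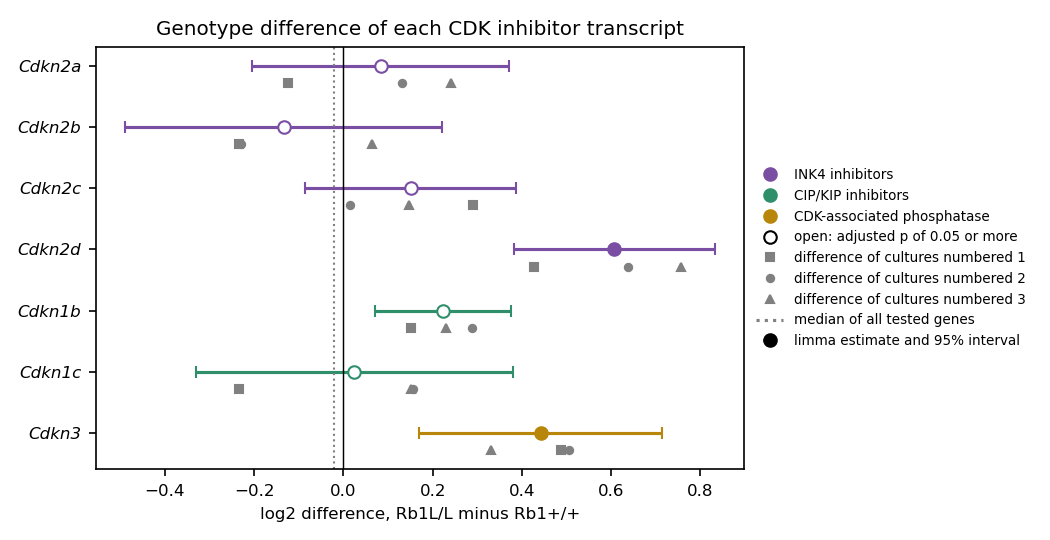
Difference between the genotypes (x axis, log2, Rb1L/L minus Rb1+/+) for each measured CDK inhibitor gene, with the limma estimate and its 95% interval in the colour of the family, filled where the adjusted p was under 0.05; small grey markers are the differences of same-numbered cultures and the dotted line is the median of all tested genes. Cdkn2d at 0.61 and Cdkn3 at 0.44 are filled, and Cdkn1b at 0.22 is not, although its interval lies above 0.

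The INK4 and CIP/KIP families were set against each other by centring each gene on its mean over the 6 arrays and averaging the members of a family on each array. The INK4 mean was 0.06, -0.10 and -0.22 in Rb1+/+ and 0.15, 0.04 and 0.08 in Rb1L/L cultures, a shift of 0.18. The CIP/KIP mean was 0.15, -0.19 and -0.15 in Rb1+/+ and 0.11, 0.04 and 0.04 in Rb1L/L cultures, a shift of 0.12. In both families the Rb1+/+ cultures were spread more widely than the Rb1L/L cultures, and the genotypes overlapped. Between same-numbered cultures the INK4 mean was higher in Rb1L/L in all 3 pairs, by 0.09, 0.14 and 0.30, and the CIP/KIP mean in 2 of 3, with differences of -0.04, 0.22 and 0.19. INK4 minus CIP/KIP was -0.10, 0.09 and -0.07 in Rb1+/+ and 0.03, 0.01 and 0.04 in Rb1L/L cultures. The Rb1L/L values lay inside the range of the Rb1+/+ values, and the genotype difference of 0.05 was smaller than the Rb1+/+ SD of 0.10, so the families did not differ beyond the spread between cultures. No p is given for these averages, and 3 arrays against 3 could not give a two-sided exact permutation p below 0.1. Without Cdkn2d the INK4 shift was 0.03 and INK4 minus CIP/KIP was -0.090, a reversed sign; this variant was chosen after the values were seen.

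**Figure D3:**
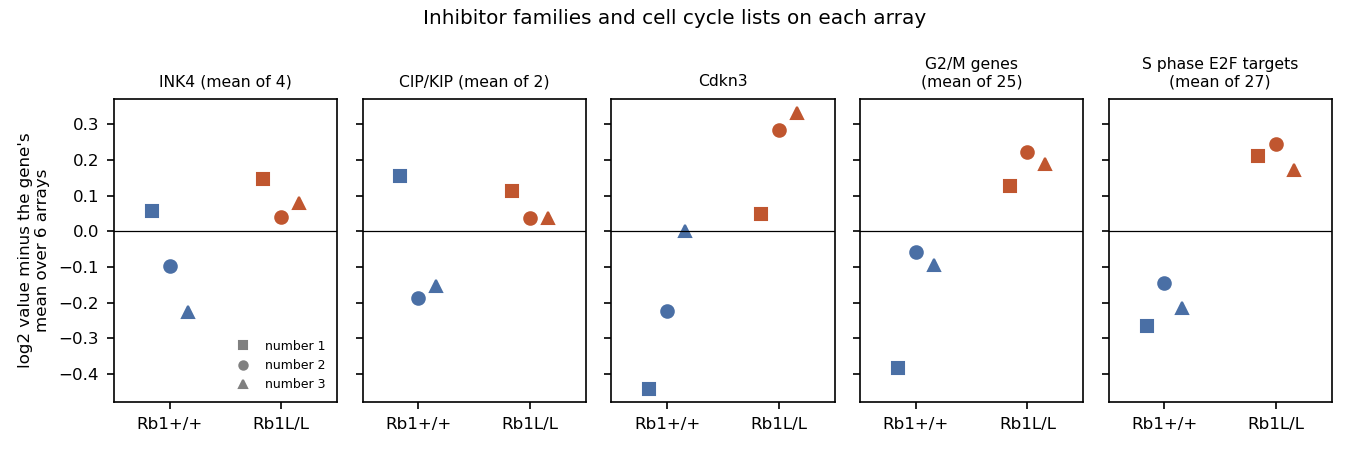
Log2 value minus the gene's mean over the 6 arrays (y axis), averaged over the 4 INK4 genes, the 2 CIP/KIP genes, Cdkn3 alone, 25 G2/M genes and 27 S phase targets of E2F, for each Rb1+/+ (blue) and Rb1L/L (orange) array; marker shape gives the culture number. The genotypes overlap in both inhibitor families and are apart in the other three panels, and Rb1+/+ culture 1 is the highest of its genotype for INK4 (0.06) and CIP/KIP (0.15) and the lowest for Cdkn3 (-0.44), G2/M genes (-0.38) and S phase targets (-0.27).

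Much of the spread among the members ran with the culture number. Culture 1 minus the mean of cultures 2 and 3 was 0.47 in Rb1+/+ and 0.16 in Rb1L/L for Cdkn2a, and 0.49 and 0.34 for Cdkn2b. It was 0.57 and 0.18 for Cdkn1c. These differences between cultures of one genotype were larger than the genotype differences of the same 3 genes. Cdkn2c ran the other way with -0.33 in Rb1+/+ and -0.12 in Rb1L/L, as did Cdkn3 with -0.33 and -0.26, while Cdkn2d (0.24 and -0.03) and Cdkn1b (0.08 and -0.03) had no shared sign. In both genotypes culture 1 was of male type and cultures 2 and 3 of female type: Xist, the RNA that coats the inactive X chromosome, was at 5.13 and 4.79 in the cultures numbered 1 and at 11.44 to 11.61 in the others, and the Y-linked gene Eif2s3y was at 8.36 and 8.47 in them and at most at 3.63 in the others. The culture number, the sex type and any shared preparation cannot be told apart. The pattern was noticed after the values were seen and carries no test.

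The array medians ran from 6.39 to 6.45. Rb1 itself differed by 0.11 ± 0.10 (SE; limma adjusted p = 0.519); the altered allele is still transcribed, so this does not check the genotype. Fibroblast markers averaged 10.87 to 10.98 in Rb1+/+ and 10.76 to 10.84 in Rb1L/L cultures, with 1 of 12 higher and 2 lower (0 or 1 higher and 0 to 2 lower with cultures left out, 3 lower with the culture number as a block). Of 10 macrophage markers, 3 were higher, among them Adgre1 by 0.95 ± 0.20 (SE; limma adjusted p = 0.0241), and 1 was lower; their mean level ran from 7.10 to 7.59 in Rb1+/+ and from 7.42 to 7.81 in Rb1L/L cultures, and 0 to 3 were higher with cultures left out. Of 7 neural markers 3 were lower (0 to 3 with cultures left out), with mean levels of 7.81 to 7.96 against 7.52 to 7.76. Of 5 endothelial markers Kdr was higher (0 or 1 higher with cultures left out). Of 6 muscle markers 0 passed (2 had an unadjusted limma p under 0.05, both lower), and of 5 epithelial and 2 erythroid markers 0 passed (0 had an unadjusted p under 0.05). Dcx, Myh3, Pecam1 and Epcam were under the floor on dim genes. Among all tested genes 12.2% passed the same test. The part of these cell mixtures in the differences of Cdkn2d and Cdkn3 was not tested.

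The kinases and cyclins that the inhibitors bind moved in both directions. Of 10 tested, 4 were higher in Rb1L/L cultures and 1 was lower, where 7.10% and 5.08% of all tested genes were. The median of the 10 was 0.03. Cdk6, a main target of INK4 proteins, fell by 0.44 on the log2 scale (SE 0.06; limma adjusted p = 0.00540), whereas Cdk4, its close relative, differed by 0.07 (limma adjusted p = 0.436). Cdk2, the main target of CIP/KIP proteins, rose by 0.41 ± 0.06 (SE; limma adjusted p = 0.00746), as did its partner cyclin E1 (Ccne1) by 0.42 ± 0.06 (limma adjusted p = 0.00593). Cdk1, the mitotic kinase, rose by 0.41 ± 0.07 (SE; limma adjusted p = 0.0112) and cyclin D3 (Ccnd3) by 0.28 ± 0.07 (limma adjusted p = 0.0342). Cyclins D1, D2 and E2 did not pass, at -0.08, -0.08 and -0.05. Without both cultures numbered 1, 0 of the 10 passed, and with any single culture left out 3 were higher.

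Of 13 pocket protein, E2F and DP genes, 2 were higher: E2f6 by 0.35 ± 0.08 (SE; limma adjusted p = 0.0246) and the activator E2f1 by 0.25 ± 0.06 (limma adjusted p = 0.0380). The pRb relatives Rbl1 and Rbl2 measured 0.26 and -0.26 and did not pass (limma adjusted p of 0.184 and 0.247), nor did E2f7 (adjusted p = 0.0587) or Tfdp2 (0.116). With cultures left out, 0 or 1 passed. The count of 2 of 13 is near the 12.2% of all tested genes that passed. Among 27 E2F targets of S phase, 24 were higher, with a median of 0.45, led by the replication helicase genes Mcm7 (0.64) and Mcm6 (0.83) and the maintenance DNA methyltransferase gene Dnmt1 (0.55), each with a limma adjusted p of 0.00273, and by the single-strand binding protein gene Rpa1 (0.50, adjusted p = 0.00295). Between 16 and 21 passed with single cultures left out, and 0 without both cultures numbered 1.

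Cdkn3 shares its late cell cycle expression with a set of G2/M genes. Among 25 tested, 13 were higher and 0 lower, where 7.10% and 5.08% of all tested genes were. At an unadjusted limma p under 0.05, 0 of the 25 were lower. Their median was 0.35, and with the culture number as a block 17 were higher. The difference of Cdkn3 was 0.44. The spindle checkpoint gene Bub1b rose by 0.63 ± 0.08 (SE; limma adjusted p = 0.00428) and the kinesin gene Kif2c by 0.64 ± 0.08 (adjusted p = 0.00477). Cenpa, the centromeric histone, rose by 0.77 ± 0.12 (SE; limma adjusted p = 0.00746), and the centrosome kinase gene Nek2 by 0.64 ± 0.10 (adjusted p = 0.00865). The mean of the centred G2/M genes was -0.38, -0.06 and -0.09 in Rb1+/+ and 0.13, 0.22 and 0.19 in Rb1L/L cultures. Rb1+/+ culture 1 was the lowest array for these genes as for Cdkn3, and also for the S phase targets (-0.27). From culture 2 to culture 3 the G2/M mean fell in both genotypes. Centred Cdkn3 instead rose, from -0.22 to 0.0009 in Rb1+/+ and from 0.28 to 0.33 in Rb1L/L. Between 6 and 13 G2/M genes passed with single cultures left out, and 1 without both cultures numbered 1.

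The genes that control the inhibitors were read by the same test. Of 21 regulators of the Ink4-Arf locus, 1 was higher and 1 lower, with a median of 0.04. At an unadjusted limma p under 0.05, 3 were higher and 4 lower, and for 10 the groups did not overlap. Over all tested genes 12.2% passed, 28.7% had an unadjusted limma p under 0.05, and for 34.5% the groups did not overlap. Kdm6b, a demethylase that removes Polycomb's mark, was lower by a log2 difference of -0.39 ± 0.09 (SE; limma adjusted p = 0.0278), and the Polycomb subunit gene Eed was higher by 0.22 ± 0.06 (limma adjusted p = 0.0448; 0.0537 with the block). The repressor gene Tbx3 measured -0.30 (limma adjusted p = 0.0524; 0.0325 with the block) and the activator gene Ets2 0.22 (0.0614). Bmi1 and Ezh2, Polycomb genes known to repress the locus, measured -0.09 and 0.04 and did not pass (limma adjusted p of 0.354 and 0.720). With cultures left out, 0 regulators were higher and 0 to 2 lower.

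Of 14 regulators of CIP/KIP transcription 0 passed by limma. At an unadjusted limma p under 0.05, which 28.7% of all tested genes had, 1 was higher and 3 were lower. Those 4 were Smad2 (0.18, adjusted p = 0.0822), Foxo1 (-0.29, 0.0847), which activates Cdkn1b, and Myc (-0.20, 0.0888) and its partner Max (-0.21, 0.0927); with the block Foxo1 was lower (adjusted p = 0.0293). Trp53, which activates Cdkn1a, has no cluster of its own and was not analysed here. Of 11 parts of the ubiquitin ligases that destroy CIP/KIP proteins, 0 passed by limma and 1, Rbx1, had an unadjusted p under 0.05 (0.25, adjusted p = 0.0687; 0.0395 with the block). Skp2, the substrate receptor for p27Kip1, measured 0.03 (limma adjusted p = 0.848), Cks1b, its cofactor, 0.13, Ddb1 0.08 and Dtl 0.10.

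Cdkn1a is a target of p53. Of 23 other targets that were tested, 6 were higher and 0 lower, with a median of 0.10. At an unadjusted limma p under 0.05, 7 were higher and 2 lower. Over all tested genes 7.10% were higher and 5.08% lower, and 28.7% had such an unadjusted limma p. Sesn1, at -0.26, was called lower with the culture number as a block (limma adjusted p = 0.0333) and without Rb1+/+ culture 2, and Zmat3, named after its values were seen, was called lower with array weights, a higher floor or trended variances. Tnfrsf10b, a death receptor gene, rose by 0.43 ± 0.07 (SE; limma adjusted p = 0.0124), Phlda3 by 0.26 (0.0246), Aen by 0.27 (0.0255) and the DNA polymerase gene Polk by 0.24 (0.0419). Mdm2, the ubiquitin ligase of p53, measured -0.04 (limma adjusted p = 0.728). With quantile normalization or no floor 3 were higher, and with cultures left out 0 to 3. The fit without Rb1L/L culture 1 was among those with 0.

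Of 12 senescence-associated genes, 3 were higher and 3 lower, with a median of -0.10. The list mixes genes known to be lost in senescence with genes known to be gained, so its pooled signs give no direction. Lamin B1 (Lmnb1), known to be lost in senescence, rose by 0.58 ± 0.06 (SE; limma adjusted p = 0.00299), and the matrix enzyme gene Mmp3, a secreted senescence factor, by 1.40 ± 0.23 (adjusted p = 0.0106). Glb1, the lysosomal galactosidase behind the senescence stain, fell by 0.38 on the log2 scale (SE 0.07; limma adjusted p = 0.0152), and Igfbp3 by 0.54 (SE 0.10; 0.0176). Hmgb2 (0.53, limma adjusted p = 0.0468) and Igfbp5 (-0.74, limma adjusted p = 0.0241) also passed and were named after their values were seen. With cultures left out 1 to 3 of the list were higher and 0 to 3 lower. Of 10 genes in the imprinted domain of Cdkn1c, Nap1l4 alone was higher (0.27, limma adjusted p = 0.0311); among the fits with cultures left out it passed only without Rb1L/L culture 3. Igf2 (-0.19), Cars (0.19) and Slc22a18 (0.13) did not pass, where 12.2% of all tested genes did.

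**Figure D4:**
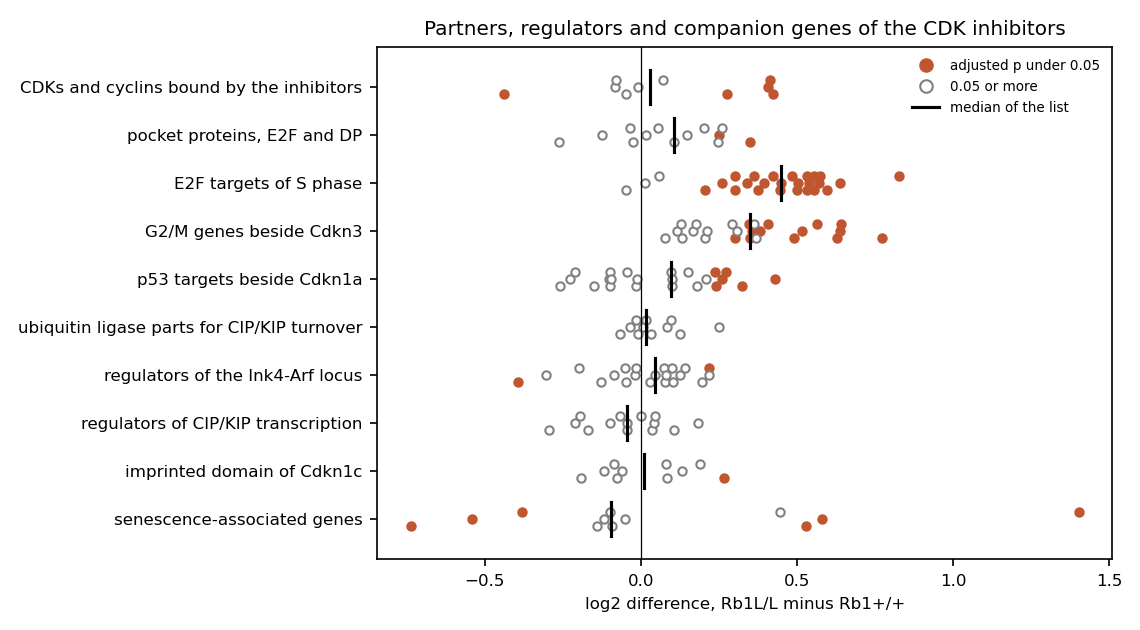
Difference between the genotypes (x axis, log2, Rb1L/L minus Rb1+/+) for each tested gene of 10 lists around the CDK inhibitors; filled points have a limma adjusted p under 0.05, open points do not, and black bars are list medians. The S phase and G2/M lists have medians of 0.45 and 0.35, with Ccne2 of the S phase list left of 0, whereas the other lists have medians from -0.10 to 0.11.

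The 2 nearest tested genes on each side of the members that rose were read in the same way. Beside Cdkn2d, the autophagy protease gene Atg4d was higher by 0.31 ± 0.06 (SE; limma adjusted p = 0.0200), while Kri1 (0.11), Slc44a2 (0.11) and Qtrt1 (-0.14) did not pass. Beside Cdkn3, Gmfb was higher by 0.33 ± 0.08 (SE; limma adjusted p = 0.0323), while Ddhd1 (-0.17), the signalling gene Bmp4 (-0.32) and Cnih1 (-0.01) did not pass. Thus in each case 1 of 4 neighbours passed and 3 did not, where 12.2% of all tested genes passed. Cdkn3 and Rb1 both lie on chromosome 14, with starts 26.4 Mb apart. The part of DNA linked to the altered allele in the differences of Cdkn3 and Gmfb was not tested.

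The profiles most like the members that rose were sought over the 6 arrays among the tested genes. Predicted or provisionally named genes, small RNAs, and odorant and vomeronasal receptor genes were left out of this search. These correlations describe 6 points that share the genotype step, and carry no p. For Cdkn2d they were Mad2l1bp (Pearson r = 0.998; 0.988 for deviations from the genotype means), which encodes a partner of the spindle checkpoint protein Mad2, Mrps6 (0.992; 0.942), a mitochondrial ribosome gene, and Txnl4b (0.991; 0.988). Their own genotype differences were 0.34, 0.36 and 0.25. For Cdkn3 they were the nuclear pore gene Nup155 (Pearson r = 0.998; 0.999 for deviations), Mterf4 (0.993; 0.982) and Atad3a (0.991; 0.979), with genotype differences of 0.19, 0.13 and 0.18 that did not pass (limma adjusted p of 0.122, 0.215 and 0.0975). Pearson r does not depend on scale, so these genes share the shape of the Cdkn3 profile and not its size.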

How the data were processed

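RNA of 6 MEF cultures was hybridised to Affymetrix mouse gene arrays. The deposited values are log2 expression values made by the authors with RMA, with Partek as the other tool, per the submitters' processing notes; tool versions and the genome build of the array were not given in the sources used here. By design, RMA gives the probe values of all arrays one distribution before they are summarised by cluster, so a change common to most genes would not show. Of 35556 transcript clusters, the 21789 with 1 gene symbol were used and 1621 with several were left out. A gene was tested where its mean exceeded log2 5.081, below which 90 percent of 1194 odorant and vomeronasal receptor genes lay. The fit over all 15462 genes used lmFit and eBayes of limma 3.58.1 (R 4.3.3), with a Benjamini-Hochberg threshold of 0.05. Culture numbers were read as pairs: the design text speaks of pairs, and deviations of same-numbered arrays correlated at 0.301, 0.243 and 0.298. Same-numbered cultures also share the sex type, which these correlations cannot set apart from pairing. The main fit did not use the pairs, and the fit with the culture number as a block did. The fit was tested on simulated data. The members and the 20 gene lists were chosen with earlier results of these data known. Named were the members, up to 4 genes of smallest p per list, direct partners and main regulators, 2 neighbours a side and the 3 most similar profiles, with Xist and Eif2s3y for the sex type. The 15 alternatives covered pairing, variances, weights, scaling, floors, cluster means and left-out cultures. The number of arrays limits the precision. Promoter sequences are from RefSeq.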

Additional observations from a re-analysis of the deposited data

How the results depend on the processing

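Cdkn2d kept its direction in all 15 alternatives, with estimates of 0.50 to 0.70 when cultures were left out. Cdkn3 kept its direction in all 15 but was called in 7; it was 0.41 with array weights and 0.44 with no floor, neither past the threshold, and 0.33 to 0.55 with cultures left out. Cdkn1b was called only with a higher floor, which tests fewer genes, at the same 0.22. Members called numbered 1 with array weights, 1 with no floor and 0 to 2 with cultures left out. With the replicate block 2232 genes were called against 1883, the log2 difference of Cdkn3 stayed at 0.44, and no call of a member changed. With cultures left out, 92 to 1439 genes were called, 87 to 849 higher and 5 to 590 lower; the fewest were called without both cultures numbered 1, which leaves 4 arrays, and the fits without Rb1+/+ culture 1 or 3 or Rb1L/L culture 1, 2 or 3 gave 837, 894, 634, 620 and 1171. Median centring gave 1259 higher and 597 lower. INK4 minus CIP/KIP was -0.090 without Cdkn2d, chosen after seeing the data, and 0.01 to 0.11 in the other alternatives; floors, weights and variance settings do not enter it. The cause of these changes was not tested beyond the numbers of arrays and genes that each setting uses. Dim genes are compressed toward the array background, and no probe-level background was analysed here.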
